A study of Homo sapiens with 12 samples.

Results

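The cytosolic chaperonin CCT, also called TRiC, is a barrel of stacked rings that closes around unfolded proteins and releases them folded in a cycle driven by ATP. Each ring is built from paralogous subunits, each encoded by a gene of its own, and actins and tubulins are its best known substrates. The complex works with prefoldin, which hands newly made chains to it, and with phosducin-like co-chaperones. The genes described here are the 8 that encode its subunits in most tissues: TCP1 (alpha), CCT2 (beta), CCT3 (gamma), CCT4 (delta), CCT5 (epsilon), CCT6A (zeta), CCT7 (eta) and CCT8 (theta). They were taken by name from a list of the complex, out of 20056 protein-coding genes in the gene table used, of which 5101 have an entry in at least 1 of the deposited tables.

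The study profiled HEK293T, an established line derived from human embryonic kidney that expresses large T antigen of SV40, in 12 samples. For N6-methyladenosine (m6A, a methylated base of mRNA), antibody pulldowns and inputs came from cells given siRNA against TRMT10A or control siRNA, with 2 samples for each of the 4 combinations. TRMT10A is a methyltransferase known for guanosine methylation in tRNA, and FTO is a demethylase that acts on m6A. For crosslinking and immunoprecipitation (CLIP), cells that overexpressed TRMT10A (3 samples) or FTO (1 sample) were irradiated with ultraviolet light, and the protein was recovered on anti-Flag beads with the RNA bound to it. The overexpressed protein, not the endogenous one, is therefore what the CLIP lists describe. The labels do not say whether the replicates came from separate cultures.

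Each assay is represented by 1 list made by the authors, without values for single samples. The depth of the libraries is unknown, and no spread between replicates can be given. RNA levels are not in these lists, so the number of sites in a gene cannot be told apart from the abundance of its RNA. A gene without an entry is one that the authors' callers did not list, and the lowest TRMT10A peak height listed is 16.

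TRMT10A sites were listed in 6 of the 8 subunit genes, against 12.6% of all protein-coding genes. The 6 genes held 33 distinct sites, with 8 each in CCT4 and CCT7, 6 each in CCT3 and CCT5, 3 in CCT8 and 2 in CCT2. TCP1 and CCT6A had none. FTO clusters were listed in all 8 genes, against 15.5% of protein-coding genes, and numbered 47. CCT7 had 10 of them, CCT2, CCT3 and CCT4 had 7 each, CCT5 and TCP1 5 each, CCT8 4 and CCT6A 2. Both proteins were listed in 6 of 8 genes, against 6.97% of protein-coding genes. These shares were not adjusted for expression and no test was made.

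**Figure D1:**
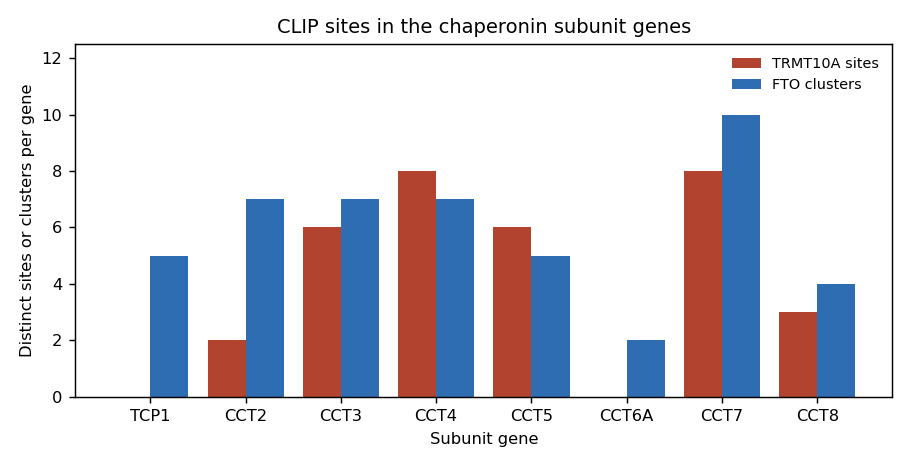
Number of distinct TRMT10A sites (red) and FTO clusters (blue) listed in each of the 8 chaperonin subunit genes, from the lists of 3 pooled TRMT10A libraries and 1 FTO library. CCT7 has the most FTO clusters and, with CCT4, the most TRMT10A sites, and TCP1 and CCT6A have FTO clusters without a TRMT10A site.

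The bound subunit genes lay toward the upper end of both lists by number of sites. The median of the 6 genes was 6 TRMT10A sites, while the median over the 2536 protein-coding genes with a site was 1. At least 8 sites, as in CCT4 and CCT7, were reached by 3.59% of those genes, and at least 6, as in CCT3 and CCT5, by 6.82%. CCT8 and CCT2 were less unusual, since 23.3% of bound genes had at least 3 sites and 43.7% at least 2. For FTO the median was 6 clusters over the 8 subunit genes and 1 over the 3110 protein-coding genes with a cluster. The 10 clusters of CCT7 were matched or passed by 3.57% of those genes and the 2 of CCT6A by 48.6%.

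Nearly all sites of both proteins lay in exons. The annotation in the authors' list placed 26 of the 33 TRMT10A sites in coding exons and 1 in the 3′ UTR of CCT2. It placed the other 6 in exons of a noncoding CCT3 transcript, and none in introns. The FTO cluster that shares a base with 1 of these 6 sites was listed in coding sequence, and so were the clusters nearest to the others. Over all protein-coding genes 12.3% of sites were intronic, and the shares in coding exons and 3′ UTRs were not counted. Of the 47 FTO clusters, 41 were listed in coding sequence, 4 in 3′ UTRs and 1 in an intron (CCT3), and 1 in CCT6A carried no location. Over all protein-coding genes 58.9% of clusters were listed in coding sequence alone, 28.3% in 3′ UTRs alone and 8.82% in introns. Both sets leaned to the 3′ side, with 24 of 33 TRMT10A sites (72.7%) and 37 of 47 FTO clusters (78.7%) 3′ of the middle of the gene span. The same shares over other protein-coding genes were 63.5% and 70.0%. The spans include introns, and the difference was not tested.

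**Figure D2:**
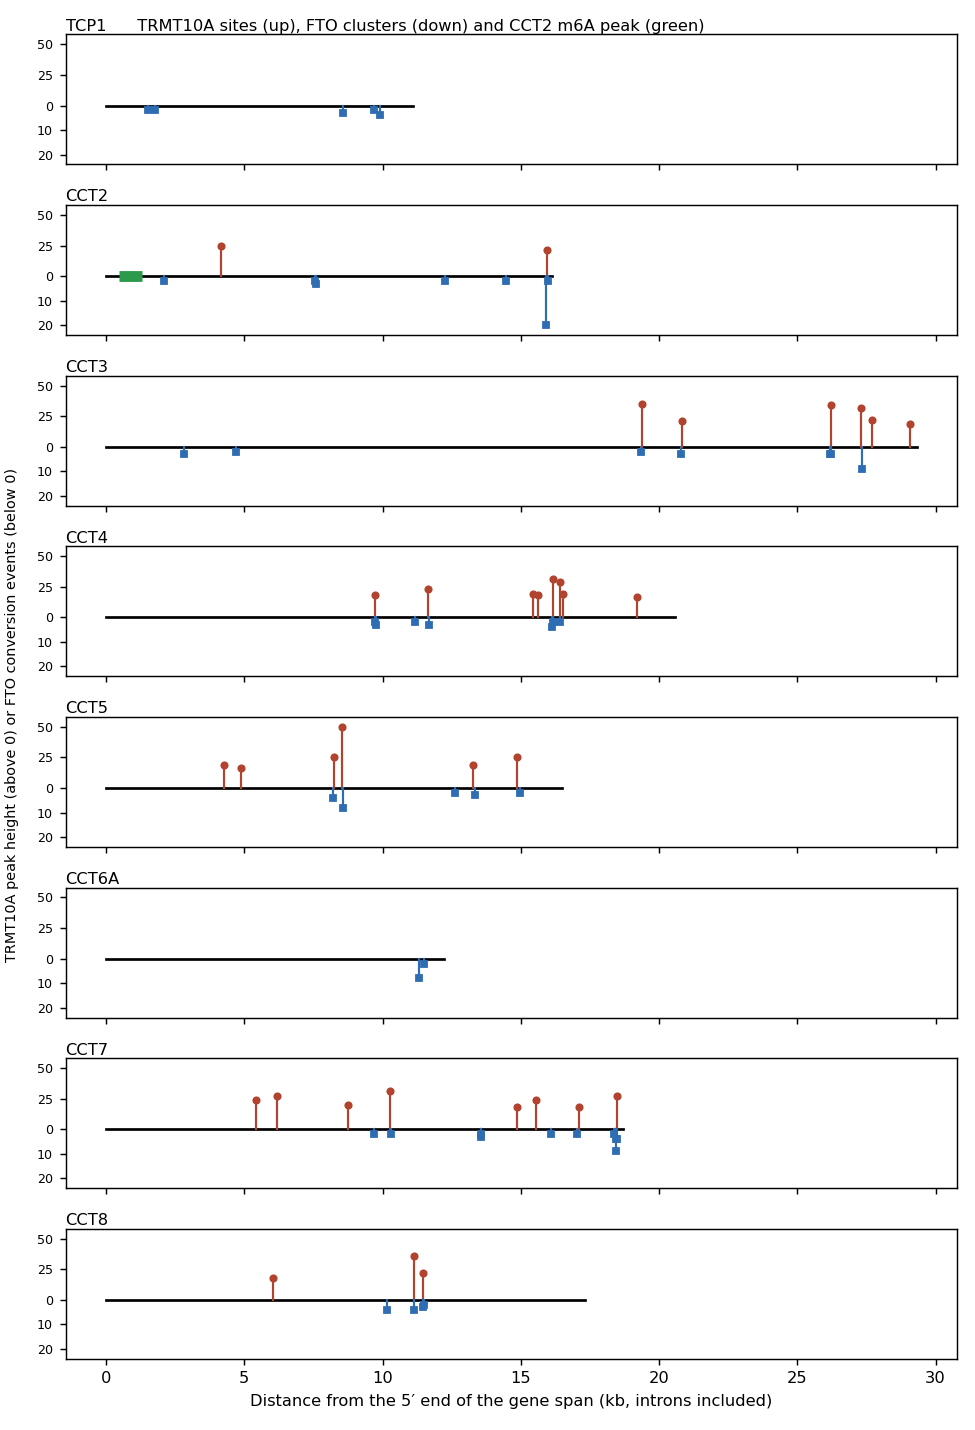
Positions along each gene, in kb from the 5′ end of its span with introns included. Red stems give the peak height of TRMT10A sites, blue stems the conversion events of FTO clusters on a separate scale, and the green block on CCT2 the span of its m6A peak. In CCT3, CCT4, CCT5 and CCT8 most red stems stand beside a blue one, while TCP1 and CCT6A have blue stems alone.

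CCT5 carried the highest TRMT10A site of the group. Its 6 sites had peak heights of 19, 16, 25, 50, 19 and 25, in exons 2, 3, 5, 6, 10 and 11 of the 11 exons of the annotated transcript. Peak height is the authors' score for a site and is compared here only within their list, whose median is 20. The site of height 50 was at chr5:10258468-10258468 (hg38, plus strand), and 4.0% of all sites in the list were at least that high. It lay 3 positions before an FTO cluster in coding sequence (chr5:10258471-10258514), which had 8 conversion events, base changes that mark crosslinked positions. The neighbouring site in exon 5, of height 25, likewise ended 5 positions from an FTO cluster, with 4 events. The sites in exons 2 and 3, of heights 19 and 16, lay 3941 and 3329 positions from the nearest FTO cluster of the gene, and the other 4 sites within 90.

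CCT7 had the most entries, with 8 TRMT10A sites and 10 FTO clusters. The site heights, from the 5′ to the 3′ end, were 24, 27, 20, 31, 18, 24, 18 and 27, in exons 2, 3, 4, 6, 8, 9, 11 and 12 of 12. The highest, in exon 6 (chr2:73244581-73244585, plus strand), lay 3 positions before an FTO cluster of 2 events. In the last exon 4 FTO clusters with 2, 9, 4 and 4 events followed each other within 100 positions of the TRMT10A site at chr2:73252791-73252791, which fell inside the last of them (chr2:73252779-73252824). The first 3 TRMT10A sites, in exons 2 to 4, lay 4253, 3504 and 957 positions from the nearest cluster. The FTO list gave 10 clusters for 3 transcripts of CCT7 and 8 for another transcript.

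CCT4 held the most places occupied by both proteins. Its 8 TRMT10A sites, in exons 5 to 13 of 14, had heights of 18, 23, 19, 18, 31, 29, 19 and 17, and 3 of them shared a base with an FTO cluster. These were the sites in exon 5 (chr2:61878940-61878941, minus strand, height 18), exon 11 (chr2:61872500-61872504, height 31) and exon 12 (chr2:61872253-61872255, height 29). Each of the shared FTO clusters had 2 conversion events, the lowest number in the list. Another site, in exon 7 with a height of 23, lay 7 positions from a cluster of 3 events. The exon 13 site was the lowest of the gene, at 17, and lay 2759 positions from the nearest cluster.

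In CCT3 all 6 TRMT10A sites were 3′ of the middle of the gene, with heights of 35, 21, 34, 32, 22 and 19. They were in exons 9, 10, 12, 13, 14 and 15 of the 15 exons of the annotated noncoding transcript. The first 4 each had an FTO cluster within 33 positions. The exon 12 site (chr1:156312075-156312076, minus strand) shared a base with a cluster of 3 events, and the exon 13 site lay 14 positions from the strongest cluster of the gene, with 9 events. The single intronic FTO cluster of the group (chr1:156335455-156335473, 3 events) lay near the 5′ end of CCT3, where no TRMT10A site was listed. The gene name column of the TRMT10A list, which gives the nearest promoter, named VHLL or TSACC for all 6 sites. CCT3 is therefore lost if that column is used, although the peak names and the annotated transcript both give CCT3.

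CCT8 had sites of heights 18, 36 and 22 in exons 4, 9 and 11 of 15. The exon 9 site (chr21:29062528-29062528, minus strand, height 36) lay 4 positions from an FTO cluster of 4 events, and the exon 11 site (chr21:29062189-29062192) fell inside a cluster of 3 events. The exon 4 site, of height 18, lay 4094 positions from any cluster. Each CCT8 site occupied 8 lines of the list, 1 under CCT8 and the rest under 7 other gene identifiers. None of those 7 genes has a span in the gene table that holds a site, and the 24 lines were counted as 3 sites.

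CCT2 had 2 TRMT10A sites, of height 25 in exon 7 and of height 21 in the 3′ UTR (chr12:69601398-69601398, plus strand). The latter lay 8 positions after the FTO cluster with the most conversion events in the group, 20, also in the 3′ UTR (chr12:69601334-69601390), and 19 positions before another of 2 events. As many as 20 events were reached by 7.95% of all FTO clusters. The other 5 clusters of CCT2 were in coding sequence with 2 or 3 events each. Thus the strongest FTO cluster of the group lay beside a TRMT10A site of ordinary height, since 45.5% of the list reached 21.

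TCP1 and CCT6A had FTO clusters alone. The 5 clusters of TCP1 had 2, 2, 3, 2 and 4 events from the 5′ to the 3′ end and were all in coding sequence. The FTO list counted all 5 for one of its transcripts and 3 for the other. CCT6A had a cluster of 8 events (chr7:56063052-56063106, plus strand, no location given) and one of 2 events in the 3′ UTR (chr7:56063232-56063261), 92.5% and 93.9% along the span. No TRMT10A site was listed under any name within the span of either gene.

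**Figure D3:**
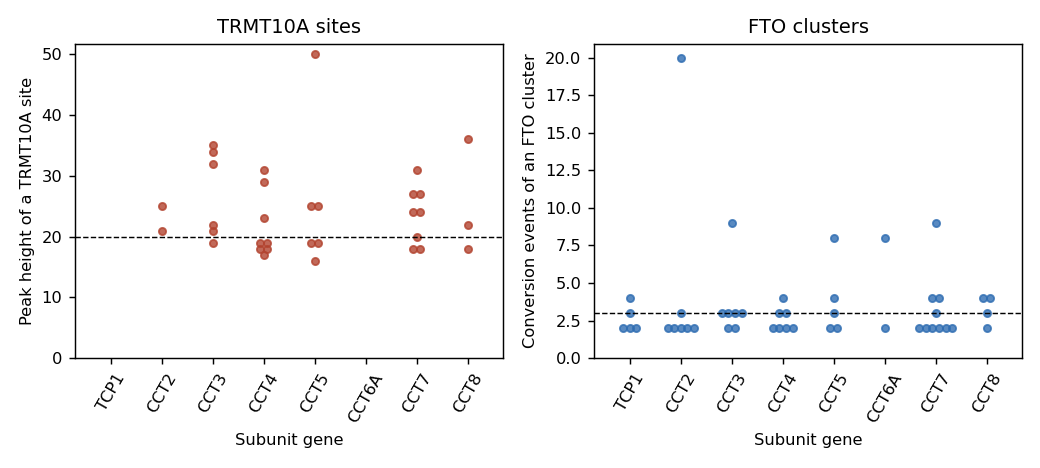
Each point is a TRMT10A site (left, peak height) or an FTO cluster (right, number of conversion events) of the named gene, and the dashed line is the median of the whole list. Of the 33 TRMT10A sites 21 are at or above the median of 20, and 1 cluster of CCT2 stands apart at 20 events.

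As a group the sites were of middling strength. TRMT10A heights ran from 16 to 50 with a median of 22, and 63.6% were at or above the median of the list, against 51.4% of all sites in protein-coding genes. FTO conversion events ran from 2 to 20 with a median of 2, below the median of 3 over the whole list and the same as the median of 2 over clusters in protein-coding genes. Clusters of 2 events, the lowest number listed, made up 51.1% of those in the subunit genes and 44.8% of the whole list. That list includes noncoding genes. The share over clusters in protein-coding genes alone was not computed, and their median was also this lowest number. The p-value written in the TRMT10A peak names was the same for all sites of a gene, 1e-100 for CCT2, CCT3 and CCT5, 6.07e-09 for CCT4, 5.74e-09 for CCT7 and 2.63e-09 for CCT8. Within a subunit gene it therefore does not rank sites, and it does not separate CCT2, CCT3 and CCT5. Of the 1107 protein-coding genes with several sites, 80.1% likewise carried a single value.

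The design also asks whether both proteins occupied the same places. In the subunit genes a position was shared, strand considered, by 6 FTO clusters and 6 TRMT10A sites, which is 12.8% of the 47 clusters and 18.2% of the 33 sites. Within the 6 genes that have both proteins, it is 15.0% of 40 clusters. In other protein-coding genes with both proteins the shares were 13.1% of 4936 clusters and 16.8% of 3824 sites, a site in several genes being counted in each. The shares of positions held in common were therefore close to the background. At least 1 such cluster was present in 4 of the 8 genes (CCT3, CCT4, CCT7 and CCT8), against 2.32% of all protein-coding genes. Only genes with both proteins can have one. Of the 1398 protein-coding genes with both, 466 had such a cluster, beside 4 of the 6 subunit genes with both. A further 6 TRMT10A sites lay within 10 positions of a cluster without touching it, in CCT2, CCT4, CCT5 (2 sites), CCT7 and CCT8. Together 36.4% of the sites were within 10 positions and 57.6% within 100. In the other genes with both proteins, the shares were 23.6% and 36.2% of the 3824 sites. The median distance in the genome, introns included, was 55 positions in the subunit genes and 534.5 in the others. Genes with more clusters offer a nearer one, and the median number of clusters was 7 in the 6 subunit genes with both proteins and 2 in the other genes. No subunit site was listed in an intron, against 12.3% of sites over all protein-coding genes. The parts of cluster number and of introns in the shorter distances were not tested.

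**Figure D4:**
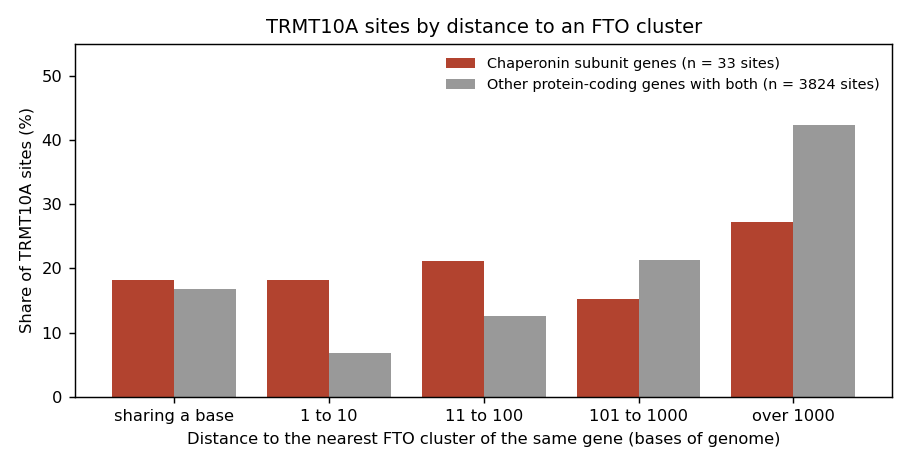
Share of TRMT10A sites (%) by distance in genome positions to the nearest FTO cluster of the same gene and strand, for 33 sites in the subunit genes (red) and 3824 sites in other protein-coding genes that have both proteins (grey). The sites that share a base make up 18.2% in the subunit genes and 16.8% in the others. The bands from 1 to 10 and from 11 to 100 positions hold 18.2% and 21.2% of the subunit sites, against 6.85% and 12.6% of the others.

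One subunit gene, CCT2, had a differential m6A peak between TRMT10A knockdown and control, against 8.56% of all protein-coding genes with a peak of either sign and 3.08% with a negative one. A count of 1 in 8 does not stand apart from that background. The authors' deposited table gave CCT2 -0.64 as log2 fold change, with an adjusted p of 0.00661. An adjusted p at or below this was listed for 59.7% of the 2023 peaks. The table does not say which condition is the numerator, so the sign is given as listed, and it means lower in the knockdown only if the ratio was knockdown over control. A value at least as negative was listed for 34.3% of the 677 negative peaks. The peak was a weak one by enrichment, with a pulldown over input of 1.69-fold in the authors' deposited table, and 10.6% of its 2023 peaks were at or below this value. The median was 4.91. The other 7 subunit genes have no line in that table, which holds only peaks past an adjusted p of 0.05, so whether they carry m6A cannot be read from it.

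The CCT2 peak lay at the 5′ end of the gene, apart from the CLIP sites in genome positions. It consisted of 3 blocks, chr12:69585940-69586009, chr12:69586270-69586344 and chr12:69586753-69586757 (hg38, plus strand), of 70, 75 and 5 bases, starting 481 bases from the 5′ end of the gene span. No TRMT10A site or FTO cluster fell in a block. The nearest FTO cluster was 774 positions and the nearest TRMT10A site 2844 positions further along the gene, introns included. The distances along the spliced mRNA were not measured. The FTO cluster of 20 events and the TRMT10A site beside it were at the opposite end of the gene. The peak therefore shared no position with either protein in these lists.

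The sequence just before this peak is shown because it is the flank of the only m6A change listed in a subunit gene, and the bases of the peak and of the CLIP sites are not used here. It comes from a RefSeq window (GRCh38.p14) of 250 bases before and 50 bases after a CCT2 transcript start at position 69585889, which ends 2 positions before the peak starts. The first stretch printed is the last 30 bases of this window (chr12:69585909-69585938). The second (chr12:69585802-69585831) holds, in capitals, the copy of GGAC on the sense strand of this window that is nearest to the peak. GGAC is the core of the sequence context in which m6A is usually found.
Flank of the CCT2 m6A peak: gatggaggccgcgttccctcgcccgcccgg
Nearest GGAC before it: aatttctagtgtgGGACccgctccgccctc
The copy of GGAC starts 125 positions before the peak and lies before that transcript start. RNA that begins at this start does not contain it. The window held GGAC at 2 places on the sense strand and at 2 on the other strand. Such a match is common, since 66.3% of 35116 windows of 300 bases held GGAC on the sense strand and 87.4% on either strand.

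A companion list held partners of the chaperonin, the CCT6A paralog CCT6B and the mitochondrial chaperonin with its partner, chosen for their known roles. Of its 14 genes 3 had a TRMT10A site and 5 an FTO cluster, against 12.6% and 15.5% of all protein-coding genes. HSPD1, the mitochondrial chaperonin of the bacterial type, accounted for most, with 6 TRMT10A sites of heights up to 24 and 9 FTO clusters of up to 15 events, and was the 1 companion with a shared position. Of the prefoldin subunits, PFDN5 had 2 TRMT10A sites (highest 24) and 1 cluster, and PFDN1, PFDN2 and VBP1 had 1 cluster each. The phosducin-like co-chaperone TXNDC9 had 1 TRMT10A site, of height 20. CCT6B, the testis paralog of CCT6A, had no entry in any of the 3 tables, and neither did PDCL, PDCL2, PDCL3, PDCD5 and HSPE1, the partner of HSPD1.

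Prefoldin genes supplied all 4 m6A peaks of the companion list of 14 genes, of both signs and small size. Of all protein-coding genes 8.56% had a peak of either sign. The log2 fold changes in the authors' deposited table were 0.26 for PFDN2 (adjusted p = 0.00219), 0.22 for PFDN6 (adjusted p = 0.00229), -0.26 for VBP1 (adjusted p = 0.00525) and -0.28 for PFDN4 (adjusted p = 0.002). All 4 were nearer to 0 than the CCT2 value in the authors' deposited table, and no common direction is present.

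Counts were also made for other protein-folding and protein-degrading genes. Of 12 HSP70 and HSP90 genes, 9 had a TRMT10A site (38 sites, highest 52). All 12 had an FTO cluster (135 clusters) and 7 had a shared position. Of the 14 genes of the 20S proteasome core, which degrades proteins, 10 had a TRMT10A site (18 sites, highest 38), 8 an FTO cluster (16 clusters) and 5 a shared position. The subunit genes, with 6, 8 and 4 of 8, stood beside the HSP70 and HSP90 genes in these shares, with 47 FTO clusters in 8 genes against 135 in 12. Over all protein-coding genes the shares were 12.6%, 15.5% and 2.32%. An m6A peak was listed for 6 of 12 HSP70 and HSP90 genes (5 positive, 1 negative) and 3 of 14 proteasome genes (1 positive, 2 negative). The share of all protein-coding genes was 8.56%. None of these differences was tested.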

How the data were processed

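m6A-seq of 8 samples, TRMT10A CLIP of 3 and FTO CLIP of 1 were deposited as 3 lists, without values per sample. Positions refer to hg38, per the submitters' processing notes, and the aligner and peak callers are not given in the sources used here. Per the file headers, the deposited m6A table holds log2 fold changes, fold enrichment as a ratio, and log10 p-values. The score of each TRMT10A site is a peak height from pooled tags, annotated with HOMER per the file headers. The score of each deposited FTO cluster is its number of conversion events, per the file headers, listed once per transcript.

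The 6571 TRMT10A lines gave 5650 distinct sites and the 19163 FTO entries 9579 distinct clusters. The identifier in the peak name assigned a site to its gene if the span in a GRCh38.p14 gene table held it, and failing that the transcript of the annotation did. Small RNA genes, ribosomal and transfer RNA included, kept their own sites. All 8 subunit genes matched by symbol and identifier. Sharing needed 1 base on the same strand. A distance is the difference between the nearest edges, introns included. Positions count from 1; whether FTO starts do is not stated. All 8 subunit genes are named, with every site counted, and companion genes that have an entry. The members, lists and tests were chosen with earlier results of these data known. No test of a gene list was made, and the one planned for values per library could not be, so counts stand beside their background. The overlap step was tested on simulated data. Python 3.11.15 and matplotlib 3.10.9 were used.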

Additional observations from a re-analysis of the deposited data

How the results depend on the processing

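The 6 genes with a TRMT10A site and the 8 with an FTO cluster stayed at 6 and 8 when sites below the median height or clusters below the median of 3 events were left out. The 6 TRMT10A genes became 5, with 24 sites, under the gene name column, an alternative chosen after seeing the data, which names another gene for all 6 sites of CCT3 and for 1 site each of CCT2, CCT4 and CCT7. At these medians 21 TRMT10A sites and 23 FTO clusters were left. With every line kept the counts were 54 and 115, since lines repeat a site. The 6 shared clusters became 26 with a gap of up to 100 bases and 5 with sites at or above the median height, and stayed 6 when 0.5 of the shorter interval had to be shared or when FTO starts were read as counted from 0, also chosen after seeing the data. With a minimum of 1 for the size of the log2 fold change, 0 subunit genes had an m6A peak. No paired analysis was possible because the tables give no values per sample, and for the same reason no replicate could be left out. With 3 pooled libraries, or 1, and unknown depth, absence from a list is not evidence of absence of binding.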

Other observations

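Small nucleolar RNA genes, the only small RNA class looked for, lie inside 2 of the subunit genes. TCP1 hosts the small nucleolar RNA genes SNORA20 and SNORA29, and CCT6A hosts SNORA22B and SNORA15, which belong to the H/ACA class that guides pseudouridine formation. SNORA20 (chr6:159780250-159780381 in the gene table) had 4 FTO clusters with 2, 2, 4 and 6 conversion events, 14 in all, and its host TCP1 had 13 over its 5 clusters. The other 3 small nucleolar RNA genes had no FTO cluster, and none of the 4 had a TRMT10A site. The subunit genes without a TRMT10A site, TCP1 and CCT6A, are thus the 2 that host these RNAs. This was seen after the values were known and was not tested.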
